A study of Mus musculus with 3 samples.

Results

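The matrix metalloproteinases (MMPs) and their tissue inhibitors (TIMPs) were examined in primary mouse keratinocytes with and without an intact *Rassf9* gene. The set comprised 9 genes, Mmp2, Mmp3, Mmp9, Mmp10, Mmp13, Mmp14, Timp1, Timp2 and Timp3, out of 18193 genes represented on the array. All probe sets to which the array annotation assigned exactly 1 gene symbol, this symbol being 1 of the 9, were taken, which gave 21 of 34945 probe sets. The rule uses gene names and no signal, but the members were chosen with earlier results of these data known.

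Expression was measured on Affymetrix Mouse Genome 430 2.0 arrays in epidermal keratinocytes of neonatal ICR mice, with 2 *RASSF9*-/- samples from 2 mice and 1 WT sample from 1 mouse, each from 1 culture plate. The *RASSF9*-/- mice were homozygous for an inserted transgene of the Epstein-Barr virus protein LMP1, which removed part of a *Rassf9* intron, so that the *RASSF9*-/- cells carried the transgene and the WT cells did not. All *RASSF9*-/- samples came from this single mouse line. Cells were grown in serum-free, low-calcium keratinocyte medium. The sample descriptions give 48 h of culture for both *RASSF9*-/- samples and 24 h for WT, while the methods give the same time for all, and if the descriptions hold then the time in culture and the genotype cannot be told apart. *RASSF9*-/- array 1 and the WT array carry the same array date, and *RASSF9*-/- array 2 carries another.

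MMPs are zinc-dependent endopeptidases that are made as inactive proenzymes and, once their propeptide is removed, cleave collagens, laminins and other components of the extracellular matrix. TIMPs bind the active site of the mature enzymes and block them, so that proteolysis at the cell surface is set by the balance of both. In skin, MMPs are known from keratinocytes that migrate at wound edges and from inflamed or remodelling tissue, where several of their genes are induced through AP-1 sites close to the transcription start.

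The values are MAS5 signals, an intensity for each probe set on a linear scale, scaled to the same trimmed mean of 500 on every array. Signals of different probe sets were not read as relative amounts of RNA. They were ranked to choose the brightest probe set of a gene and summed over marker lists. No detection calls were used, so 78.4, the highest signal on any array of the 27 controls from *Bacillus subtilis*, served as a background limit. Of the 21 member probe sets, 20 lay above this limit on all 3 arrays. The median signal of an array was between 81.7 and 99, and the ratio of 3' to 5' control signals was between 0.832 and 0.939 for Gapdh and between 1.37 and 1.43 for beta-actin. The *Rassf9* probe sets gave 59.6 and 68.2 on *RASSF9*-/- array 1, 120.2 and 76.7 on *RASSF9*-/- array 2, and 478.1 and 340.4 on the WT array. The basal keratins, which define these cells, were bright on each array, Krt14 with 38752 and 38300 on the *RASSF9*-/- arrays and 38140 on the WT array, whereas Krt15, a further basal keratin, was under the limit on all of them. Trp63, a transcription factor of basal keratinocytes, gave 1460 and 1543 on the *RASSF9*-/- arrays and 3239 on the WT array. Krt1, a suprabasal keratin, gave 5.7 and 29.6 on the *RASSF9*-/- arrays, under the limit, and 440.1 on the WT array. Krt10, the other suprabasal keratin read, did not follow it, with 338.5 and 530.8 on the *RASSF9*-/- arrays and 396.7 on the WT array. Of the 10 keratinocyte markers read, 2 were higher than WT on *RASSF9*-/- array 1 and 4 on *RASSF9*-/- array 2.

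Promoter sequence was available for 7 of the 9 genes from RefSeq (GRCm38.p6), with none for Mmp2 and Mmp9. Mmp3, Mmp10 and Mmp13 are shown because they belong to 1 gene cluster on chromosome 9, and Timp3 because it was the inhibitor with the lowest *RASSF9*-/- signals relative to WT. Each line gives the 150 bases before the annotated start, 5′ to 3′, with matches to TGANTCA (the AP-1 motif) and TATAAA in capitals for the 3 MMPs and the match to GGGCGG on the opposite strand in capitals for Timp3.
Mmp13 (chr9:7272364-7272513, + strand): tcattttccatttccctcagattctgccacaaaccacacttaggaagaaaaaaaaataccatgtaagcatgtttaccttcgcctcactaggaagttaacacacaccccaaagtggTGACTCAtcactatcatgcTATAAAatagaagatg
Mmp3 (chr9:7445672-7445821, + strand): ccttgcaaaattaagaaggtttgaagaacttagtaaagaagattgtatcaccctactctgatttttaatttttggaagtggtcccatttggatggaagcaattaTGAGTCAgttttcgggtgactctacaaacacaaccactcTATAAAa
Mmp10 (chr9:7502192-7502341, + strand): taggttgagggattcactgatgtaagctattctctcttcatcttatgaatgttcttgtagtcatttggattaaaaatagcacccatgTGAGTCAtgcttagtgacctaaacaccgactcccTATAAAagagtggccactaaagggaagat
Timp3 (chr10:86300262-86300411, + strand): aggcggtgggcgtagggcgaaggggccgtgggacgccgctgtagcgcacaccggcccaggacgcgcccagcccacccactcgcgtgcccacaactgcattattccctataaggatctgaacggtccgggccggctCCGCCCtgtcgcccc
All 3 MMP windows held 1 AP-1 match and 1 TATAAA match, searched on both strands and without overlap between the motifs. The AP-1 match began 35 bases before the start in Mmp13, 46 in Mmp3 and 63 in Mmp10. Of 32851 windows of the same length in RefSeq, 4.24% held TGANTCA, 7.57% held TATAAA and 28.6% held GGGCGG. The Timp1, Timp2, Timp3 and Mmp14 windows held no AP-1 or TATAAA match and 1 or 2 GGGCGG matches. GC content was 38.7% in Mmp13, 35.3% in Mmp3 and 39.3% in Mmp10, compared with 70.7% in Timp3 and a median of 54% over all windows. A match describes the letters only, and binding was not measured.

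The question was which of these proteases and inhibitors differ between *RASSF9*-/- and WT keratinocytes. Of the 9 genes, Mmp3 was at least 2-fold higher and Timp3 at least 2-fold lower than WT on both *RASSF9*-/- arrays. Mmp9 was higher on both, but by very different amounts. Mmp10 and Mmp13 were at least 2-fold higher on *RASSF9*-/- array 1 and at least 2-fold lower on *RASSF9*-/- array 2 than on the WT array. No member passed the test. With limma, fitted over 11089 genes with the brightest probe set of each and with Benjamini-Hochberg adjustment, 0 of the 9 members and 0.0812% of all genes were called at an adjusted p under 0.05, and 2 members, Mmp3 and Timp3, and 615 genes had an unadjusted p under 0.05. A plain t-test of the kind named in the methods also called 0 members. The only replicates in this fit are the *RASSF9*-/- pair. The spread used for each gene combines that of its own pair with a value drawn by limma from all genes tested. The p-values therefore hold no spread between WT samples. The number of arrays limits the precision, and an adjusted p over the threshold does not show that a gene was unchanged. Both *RASSF9*-/- differences share the single WT array.

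**Figure D1:**
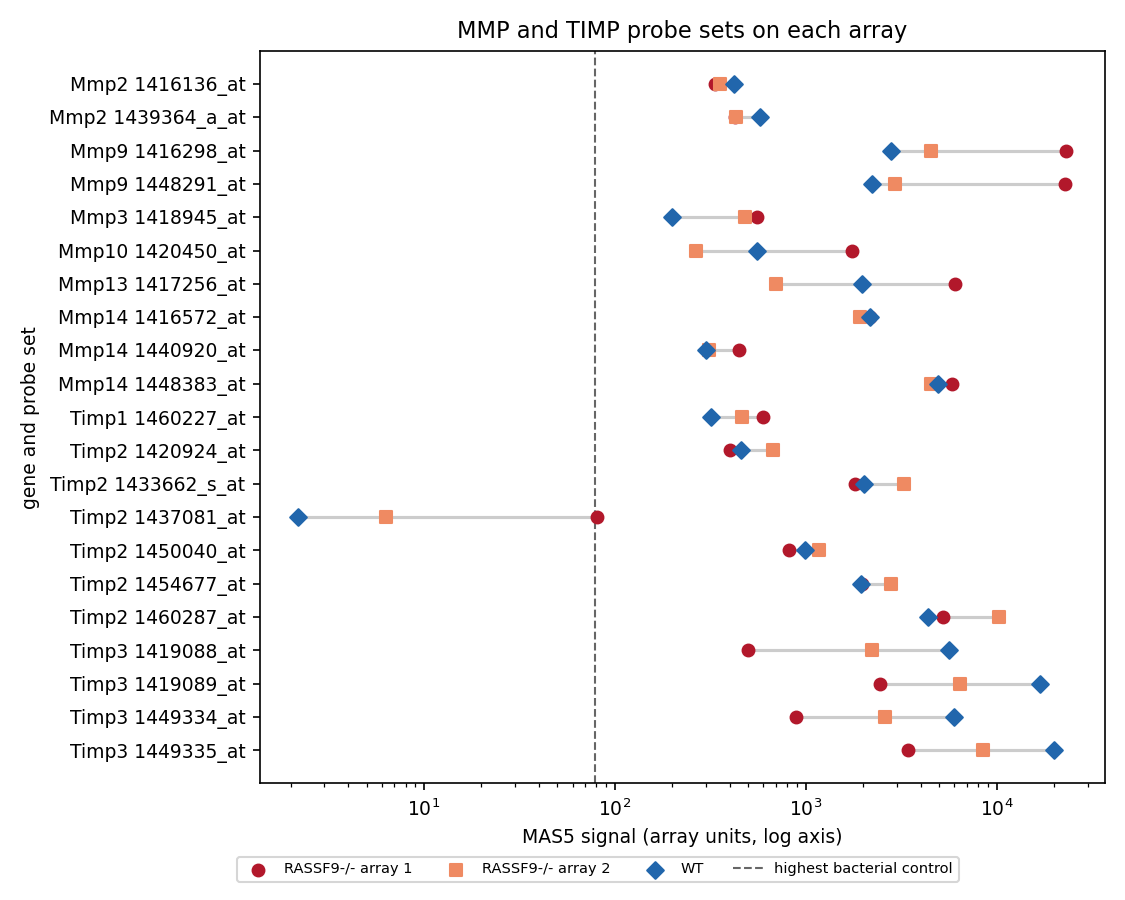
MAS5 signal (log axis) of all 21 member probe sets on *RASSF9*-/- array 1 (circles), *RASSF9*-/- array 2 (squares) and the WT array (diamonds). The dashed line is the background limit of 78.4, grey lines join the arrays of a probe set, and only the Timp2 probe set 1437081_at had arrays under the limit.

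The gelatinases Mmp2 and Mmp9 degrade denatured collagen and the type IV collagen of basement membranes. Mmp9 (chromosome 2) was read by 2 probe sets. The brighter, 1416298_at, gave 23189 on *RASSF9*-/- array 1 and 4508 on *RASSF9*-/- array 2, against 2807 on the WT array. The other, 1448291_at, gave 22879 and 2919 on the *RASSF9*-/- arrays, against 2229 on the WT array. Thus *RASSF9*-/- array 1 stood far above the other arrays on both probe sets, by 8.26-fold to 10.3-fold relative to WT, whereas *RASSF9*-/- array 2 was 1.31-fold to 1.61-fold above WT. The log2 estimate was 1.87 (SE 0.87, 95% interval -0.24 to 3.97, limma adjusted p = 0.951). The log2 gap of 2.36 between the *RASSF9*-/- arrays was wider than the difference of *RASSF9*-/- array 2 from WT, and 1.36% of genes had a gap as large.

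Mmp2 (chromosome 8), which is held at the cell surface for activation by Mmp14 together with Timp2, was also read by 2 probe sets. The brighter probe set, 1439364_a_at, gave 427.1 and 429.8 on the *RASSF9*-/- arrays and 573.4 on the WT array, and 1416136_at gave 335.4 and 355.8 on the *RASSF9*-/- arrays and 423 on the WT array. The *RASSF9*-/- arrays were close to each other and under WT on both probe sets. The log2 estimate was -0.42 (SE 0.45, 95% interval -1.51 to 0.67, limma adjusted p = 1.00), a difference that did not exceed the spread assumed by the fit.

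The stromelysins Mmp3 and Mmp10 have a broad range of matrix substrates and also cleave the propeptides of other MMPs. Mmp3 gave 556.5 on *RASSF9*-/- array 1 and 479 on *RASSF9*-/- array 2, against 199 on the WT array. Both *RASSF9*-/- values lay well above WT and differed little from each other, 2.80-fold and 2.41-fold higher than WT. In the count of genes at least 2-fold higher on both arrays, which has no test, Mmp3 was 1 of 9 members, and 2.89% of all genes met the same rule. The log2 estimate was 1.38 (SE 0.48, 95% interval 0.22 to 2.53), with a limma p of 0.0265 before and 0.770 after adjustment. By the smaller of its log2 changes Mmp3 ranked 189 among the 3728 genes that were higher on both arrays.

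Mmp10, known from the leading edge of healing epidermis, gave 1744 on *RASSF9*-/- array 1 and 266.4 on *RASSF9*-/- array 2, against 557.3 on the WT array. The WT value lay between those of the *RASSF9*-/- arrays, 3.13-fold lower than the first and 2.09-fold higher than the second. The log2 estimate of 0.29 (SE 1.03, 95% interval -2.19 to 2.77, limma adjusted p = 1.00) therefore averages opposite differences of 1.65 and -1.06.

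Mmp13, the principal interstitial collagenase of rodents, showed the same order of arrays. It gave 6018 on *RASSF9*-/- array 1 and 701.8 on *RASSF9*-/- array 2, against 1963 on the WT array, that is 3.07-fold higher than WT on the first and 2.80-fold lower on the second. The log2 estimate was 0.07 (SE 1.12, 95% interval -2.65 to 2.78, limma adjusted p = 1.00), from log2 differences of 1.62 and -1.48. The log2 gap between the *RASSF9*-/- arrays was 3.10 for Mmp13 and 2.71 for Mmp10, and 0.460% and 0.821% of all genes had a gap at least as large as these. Mmp10 and Mmp13 were 2 of the 9 members that were at least 2-fold higher on *RASSF9*-/- array 1 and at least 2-fold lower on *RASSF9*-/- array 2, a pattern of 23 genes, or 0.207% of all genes, counted without a test. With signals under the background limit raised to it, a setting added after the data were seen, 16 of these 23 genes remained, Mmp10 and Mmp13 among them. With Mmp9 and Timp3 they made 4 members that differed at least 2-fold between the *RASSF9*-/- arrays, compared with 13.7% of all genes. Mouse, culture plate and array date all differ between these arrays and cannot be told apart.

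Mmp14 (chromosome 14) is the membrane-type enzyme that activates pro-Mmp2. Its brightest probe set, 1448383_at, gave 5827 and 4515 on the *RASSF9*-/- arrays and 4949 on the WT array, and 1416572_at gave 2175 and 1919 on the *RASSF9*-/- arrays and 2159 on the WT array. WT lay between the *RASSF9*-/- arrays on both probe sets. The dimmest, 1440920_at, gave 447.9 and 310.8 on the *RASSF9*-/- arrays and 299.7 on the WT array. The log2 estimate from the brightest was 0.05 (SE 0.34, 95% interval -0.78 to 0.88, limma adjusted p = 1.00), the narrowest interval of the 9 genes.

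**Figure D2:**
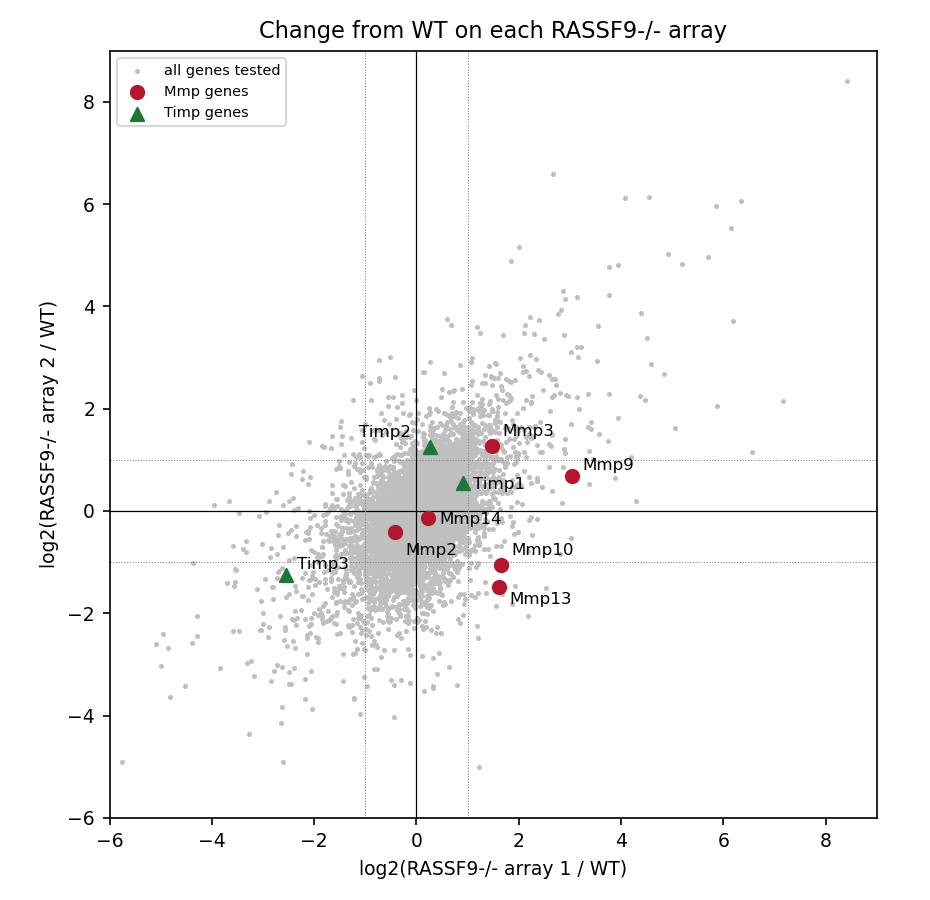
Log2 ratio to WT on *RASSF9*-/- array 1 (x axis) and *RASSF9*-/- array 2 (y axis) for the 11089 genes tested (grey), the 6 MMP members (circles) and the 3 TIMP members (triangles), with dotted lines at 2-fold. Mmp3 lies past 2-fold at the upper right and Timp3 at the lower left, and Mmp10 and Mmp13 lie past 2-fold at the lower right, and both axes share the WT array.

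Among the inhibitors, Timp3 gave lower signals on both *RASSF9*-/- arrays than on WT, and the brightest probe sets of Timp1 and Timp2 gave higher ones. Timp3 (chromosome 10), which is bound to the extracellular matrix and inhibits ADAM proteases as well as MMPs, was read by 4 probe sets. The brightest, 1449335_at, gave 3442 on *RASSF9*-/- array 1 and 8441 on *RASSF9*-/- array 2, against 20049 on the WT array. The next, 1419089_at, gave 2458 and 6453 on the *RASSF9*-/- arrays and 16935 on the WT array. All 4 probe sets had the same order, lowest on *RASSF9*-/- array 1 and highest on WT. The signal of 1449334_at was 890.9 and 2604 on the *RASSF9*-/- arrays and 5981 on the WT array, and that of 1419088_at was 500.7 and 2230 on the *RASSF9*-/- arrays and 5614 on the WT array. Over the 4 probe sets the WT signal was 5.83-fold to 11.2-fold that of *RASSF9*-/- array 1 and 2.30-fold to 2.62-fold that of *RASSF9*-/- array 2. Timp3 was the 1 member of 9 that was at least 2-fold lower on both arrays, as were 2.24% of all genes. The log2 estimate was -1.90 (SE 0.54, 95% interval -3.21 to -0.58), with a limma p of 0.0119 before and 0.572 after adjustment. With every probe set fitted by itself, the adjusted p of the 4 lay between 0.502 and 0.717, and they read the same 3 RNA samples. Of the 3628 genes with lower signals on both arrays, Timp3 ranked 157. Rassf9 lies on the same chromosome, and any part of this position in the Timp3 signals was not tested.

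Timp1 (chromosome X), a secreted inhibitor that binds pro-Mmp9, gave 593.9 and 465.9 on the *RASSF9*-/- arrays, against 317.6 on the WT array. Both *RASSF9*-/- values were above WT. The log2 estimate was 0.73 (SE 0.47, 95% interval -0.41 to 1.87, limma adjusted p = 1.00), and the difference was not past the threshold.

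Timp2 (chromosome 11), which both inhibits MMPs and takes part in the activation of pro-Mmp2 by Mmp14, was read by 6 probe sets. The brightest, 1460287_at, gave 5237 on *RASSF9*-/- array 1 and 10348 on *RASSF9*-/- array 2, against 4347 on the WT array. Here *RASSF9*-/- array 2 was the high one, in contrast to Mmp9, Mmp10 and Mmp13. Of the 5 probe sets above the background limit on all arrays, all were higher on *RASSF9*-/- array 2 than on WT, by log2 differences of 0.23 to 1.25, while the differences of *RASSF9*-/- array 1 ran from -0.29 to 0.27. The sixth, 1437081_at, gave 80.2 and 6.3 on the *RASSF9*-/- arrays and 2.2 on the WT array, which is not above background on 2 of the 3. The log2 estimate from the brightest was 0.76 (SE 0.46, 95% interval -0.36 to 1.88, limma adjusted p = 1.00).

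Across the 9 genes, each read by its brightest probe set, 4 were higher on both *RASSF9*-/- arrays than on WT, 2 were lower on both and 3 went opposite ways. Over all genes tested the shares were 33.6%, 32.7% and 33.7% in the same order, so the member counts lie near the background. Timp2 was counted as higher on both, though its probe sets 1420924_at, 1433662_s_at and 1450040_at were lower than WT on *RASSF9*-/- array 1. The median log2 difference from WT was 0.90 on *RASSF9*-/- array 1 and -0.13 on *RASSF9*-/- array 2, beside 0.05 and -0.04 over all genes tested. The median absolute log2 gap between the *RASSF9*-/- arrays was 0.98 for the members and 0.38 for all genes. For the 6 MMPs alone the median difference was 1.55 on *RASSF9*-/- array 1 and -0.27 on *RASSF9*-/- array 2.

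**Figure D3:**
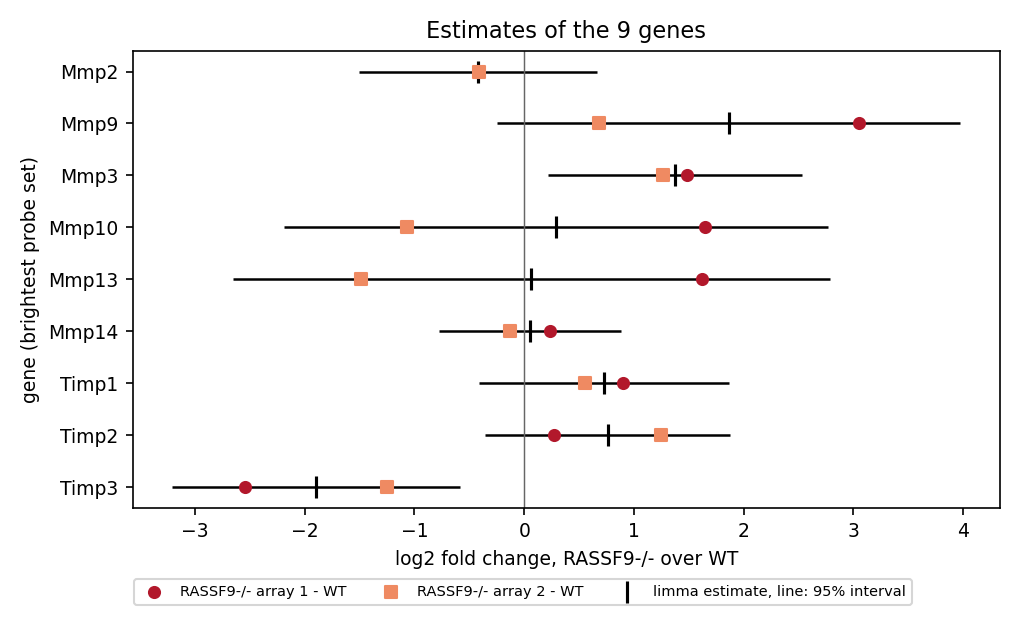
Log2 fold change of *RASSF9*-/- over WT for the brightest probe set of each gene, with *RASSF9*-/- array 1 (circles), *RASSF9*-/- array 2 (squares), the limma estimate (vertical mark) and its 95% interval (line). The intervals of Mmp3 (0.22 to 2.53) and Timp3 (-3.21 to -0.58) lie to 1 side of 0 before adjustment for the number of genes, and the widest intervals are those of Mmp10 and Mmp13.

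The remaining family members were mostly near or under the background limit. Of 19 further MMP and TIMP genes listed, 14 had a probe set with a single symbol, 22 probe sets in all, and none of the 22 was above the limit on all 3 arrays. No probe set with a single symbol was matched for Mmp15, Mmp21, Mmp25, Mmp27 and Mmp28. Mmp1a, Mmp7, Mmp8, Mmp17, Mmp20 and Reck, a membrane-anchored MMP inhibitor, were under the limit on every array. Mmp1b, Mmp19, Mmp23, Mmp24 and Timp4 passed it on some arrays only.

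Mmp12, macrophage elastase, was 1 of the 3 further genes tested. It gave 330.1 and 347.2 on the *RASSF9*-/- arrays and 28.2, which is not above background, on the WT array. Both *RASSF9*-/- arrays were nearly equal, and the signal was at least 4.32-fold higher than WT when the WT value was raised to the background limit. The limma adjusted p of 0.248 rests on a WT value that is not above background, in a gene that passed the filter through its *RASSF9*-/- arrays. Mmp16, a membrane-type enzyme, gave 170.6 and 128.7 on the *RASSF9*-/- arrays and 50.4 on the WT array with probe set 1422626_at, at least 1.89-fold higher. Its WT value was also under the limit, and Mmp16 likewise passed the filter through its *RASSF9*-/- arrays. Another Mmp16 probe set, 1440161_at, had its highest signal on the WT array. Mmp11, stromelysin-3, gave 99.7 and 60.1 on the *RASSF9*-/- arrays and 105.8 on the WT array.

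**Figure D4:**
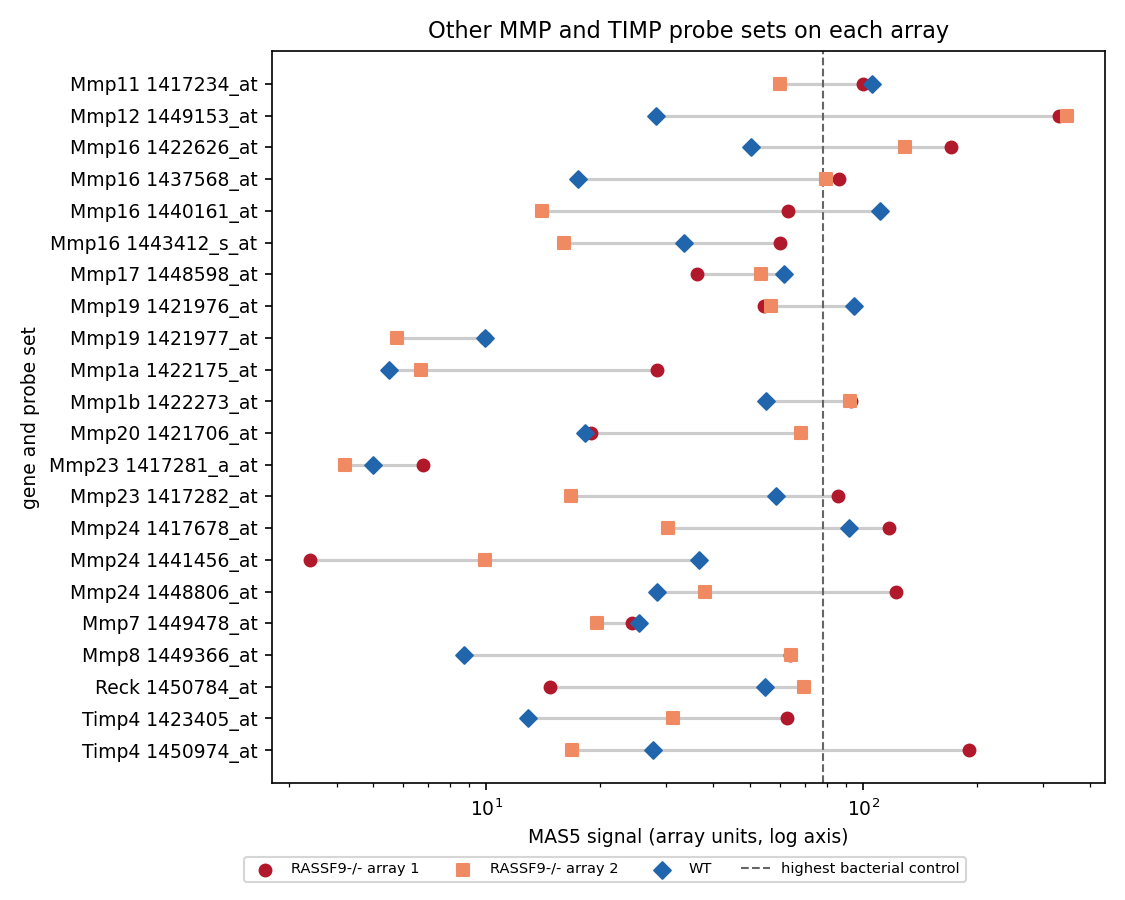
MAS5 signal (log axis) of the 22 probe sets of 14 further MMP and TIMP genes on *RASSF9*-/- array 1 (circles), *RASSF9*-/- array 2 (squares) and the WT array (diamonds), with the background limit of 78.4 as a dashed line. Mmp12 is the probe set with both *RASSF9*-/- arrays, at 330.1 and 347.2, farthest above a WT array under the limit.

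In the RefSeq gene order, the 10 protein-coding genes of the chromosome 9 cluster are Mmp13, Mmp12, Mmp1b, Mmp3, Mmp1a, Mmp10, Mmp8, Mmp27, Mmp20 and Mmp7. The neighbours did not share a pattern over the arrays. Mmp12 and Mmp3 were higher on both *RASSF9*-/- arrays. Mmp1b, a gene related to interstitial collagenase, gave 92.8 and 92.4 on the *RASSF9*-/- arrays and 55.3, under the limit, on the WT array, at least 1.18-fold higher. Mmp13 and Mmp10, which lie on either side of these, were higher than WT on *RASSF9*-/- array 1 only. Mmp8, the neutrophil collagenase, had 63.9 and 64.3 on the *RASSF9*-/- arrays and 8.7 on the WT array, all under the limit. The part of the AP-1 matches printed for Mmp3, Mmp10 and Mmp13 in these patterns was not tested.

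Markers of other cell types were read because MMPs and TIMPs are also made by fibroblasts and leukocytes, and in bulk RNA fewer cells of a type and less RNA per cell cannot be told apart. The summed signal of 13 fibroblast markers was 3348 and 4401 on the *RASSF9*-/- arrays and 3759 on the WT array, with Fap under the limit on all arrays. Vim, vimentin, carried the sum on *RASSF9*-/- array 2, with 1308 and 2832 on the *RASSF9*-/- arrays and 1299 on the WT array. Without it, a choice made after the data were seen, the other 12 summed to 2040 and 1569 on the *RASSF9*-/- arrays and 2461 on the WT array. Of the 13, 3 (Vim, Lum and Twist2) were higher on both *RASSF9*-/- arrays, 6 were lower on both and 4 were mixed, counted without the background limit. Lum was under the limit on *RASSF9*-/- array 2 and on the WT array. Pdgfra and Pdgfrb, counted as lower on both, were under it on *RASSF9*-/- array 2. The lower ones included the collagens Col1a1, Col1a2 and Col5a1 and the surface protein Thy1. Col1a2 gave 247.2 and 165.6 on the *RASSF9*-/- arrays and 460 on the WT array. Of 14 leukocyte markers 12 were on the array, with summed signals of 2960 and 3010 on the *RASSF9*-/- arrays and 2031 on the WT array. Without Csf1r, a macrophage receptor with 791.8 and 1686 on the *RASSF9*-/- arrays and 784.4 on the WT array, the other 11 summed to 2168 and 1324 on the *RASSF9*-/- arrays and 1246 on the WT array. Ptprc (CD45), which defines leukocytes, was under the limit on all 3 arrays, as were Itgam and Cd207. Fcer1g, an Fc receptor subunit, gave 142.1 on *RASSF9*-/- array 1 and 20.9 on *RASSF9*-/- array 2, against 15.2 on the WT array. Mpo, a neutrophil enzyme, gave 107.6 and 66 on the *RASSF9*-/- arrays, against 34.5 on the WT array. For both genes only *RASSF9*-/- array 1 was above the limit. Elane, a further neutrophil enzyme, gave 121.4 and 75.1 on the *RASSF9*-/- arrays, against 111.5 on the WT array. Of the 12, 9 had their highest signal on *RASSF9*-/- array 1, while Csf1r and Cd68 had theirs on *RASSF9*-/- array 2 and Cd207 on the WT array. Ptprc and Itgam are among the 9. Of the 12 markers, 3 were under the limit on *RASSF9*-/- array 1, 8 on *RASSF9*-/- array 2 and 7 on the WT array. This order therefore rests in part on signals not above background. The part of these markers in the Mmp9 and Mmp12 signals was not tested. The 6 endothelial markers summed to 382.7 and 431.9 on the *RASSF9*-/- arrays and 328.8 on the WT array, with Pecam1, Cdh5 and Vwf under the limit on all. The 7 melanocyte markers, all above the limit, summed to 24999 and 35285 on the *RASSF9*-/- arrays and 29399 on the WT array.

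Genes that act together with MMPs were examined as lists, and none of their genes was called by limma. Over all genes tested, 33.6% were higher on both *RASSF9*-/- arrays, 32.7% lower on both and 5.55% had an unadjusted p under 0.05, and the counts of each list are to be read against these shares. Of 12 ADAM and ADAMTS proteases 11 were tested, of which 4 were higher and 3 lower on both *RASSF9*-/- arrays, 3 had an unadjusted p under 0.05, and the median log2 estimate was 0.09, beside -0.01 for all genes. Adam8, a membrane sheddase, gave 7889 and 14061 on the *RASSF9*-/- arrays and 1704 on the WT array (log2 estimate 2.63, SE 0.43, limma adjusted p = 0.249). Adamts4, an aggrecanase, gave 3380 and 804.2 on the *RASSF9*-/- arrays and 282.8 on the WT array (log2 estimate 2.54, SE 0.81, limma adjusted p = 0.689). Like Mmp9, Adamts4 was highest on *RASSF9*-/- array 1. Adamts9 gave 351.3 and 249.7 on the *RASSF9*-/- arrays and 132.2 on the WT array, and Adam15 gave 744.2 and 989.4 on the *RASSF9*-/- arrays and 1719 on the WT array.

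Of 19 activators and cell surface partners 13 were tested, 6 higher and 5 lower on both arrays, with 2 at an unadjusted p under 0.05 and a median log2 estimate of -0.07. Lcn2 encodes lipocalin-2, which in humans forms a complex with MMP9. It gave 8685 on *RASSF9*-/- array 1 and 205.3 on *RASSF9*-/- array 2, against 92.2 on the WT array, a log2 difference of 6.56 on the first and 1.15 on the second (log2 estimate 3.86, SE 1.91, limma adjusted p = 0.988). The order of the arrays was that of Mmp9. Pcsk6, a proprotein convertase, gave 163.7 and 297.5 on the *RASSF9*-/- arrays and 953.8 on the WT array (log2 estimate -2.11, SE 0.56, limma adjusted p = 0.525), the order seen for Timp3. The plasminogen activator urokinase, Plau, gave 432 and 213 on the *RASSF9*-/- arrays and 143.3 on the WT array, and its receptor Plaur gave 1789 and 2934 on the *RASSF9*-/- arrays and 1002 on the WT array.

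Of 27 ligands and transcription factors that are known to induce MMPs 22 were tested, 11 higher and 5 lower on both arrays, with 3 at an unadjusted p under 0.05 and a median log2 estimate of 0.14. The cytokine Il1a gave 3235 and 2688 on the *RASSF9*-/- arrays and 486.2 on the WT array (log2 estimate 2.60, SE 0.37, limma adjusted p = 0.192). Tnf gave 1783 and 1391 on the *RASSF9*-/- arrays and 575.1 on the WT array (log2 estimate 1.45, SE 0.40, limma adjusted p = 0.542). Both arrays were alike for these cytokines, as for Mmp3 and Mmp12 and unlike Mmp9, Mmp10 and Mmp13. Genes were named here only if they moved the same way on both arrays. Il1b, a further cytokine, did not, with 148.3 and 78.4 on the *RASSF9*-/- arrays and 105.5 on the WT array. Of the AP-1 subunits, Fos, Fosl2 and Jun were lower than WT on both *RASSF9*-/- arrays, and Fosl1, Junb and Jund were higher on both. Tgfb2, a growth factor, gave 747 and 479.7 on the *RASSF9*-/- arrays and 236 on the WT array. Osm, oncostatin M, gave 108.5 and 126.4 on the *RASSF9*-/- arrays and 64.3, under the limit, on the WT array, at least 1.49-fold higher.

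Of 16 matrix and basement membrane substrates 13 were tested, 5 higher and 4 lower on both arrays, with 1 at an unadjusted p under 0.05 and a median log2 estimate of -0.08. Col7a1, the anchoring fibril collagen, gave 1242 and 608.5 on the *RASSF9*-/- arrays and 2330 on the WT array (log2 estimate -1.42, SE 0.52, limma adjusted p = 0.796). Nid1, the basement membrane linker nidogen, gave 201.1 and 1788 on the *RASSF9*-/- arrays and 132.1 on the WT array, high on *RASSF9*-/- array 2 only. Hspg2, perlecan, gave 864.7 and 743.6 on the *RASSF9*-/- arrays and 485.9 on the WT array, and Lama5, a laminin chain, gave 1454 and 1074 on the *RASSF9*-/- arrays and 844.5 on the WT array.

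**Figure D5:**
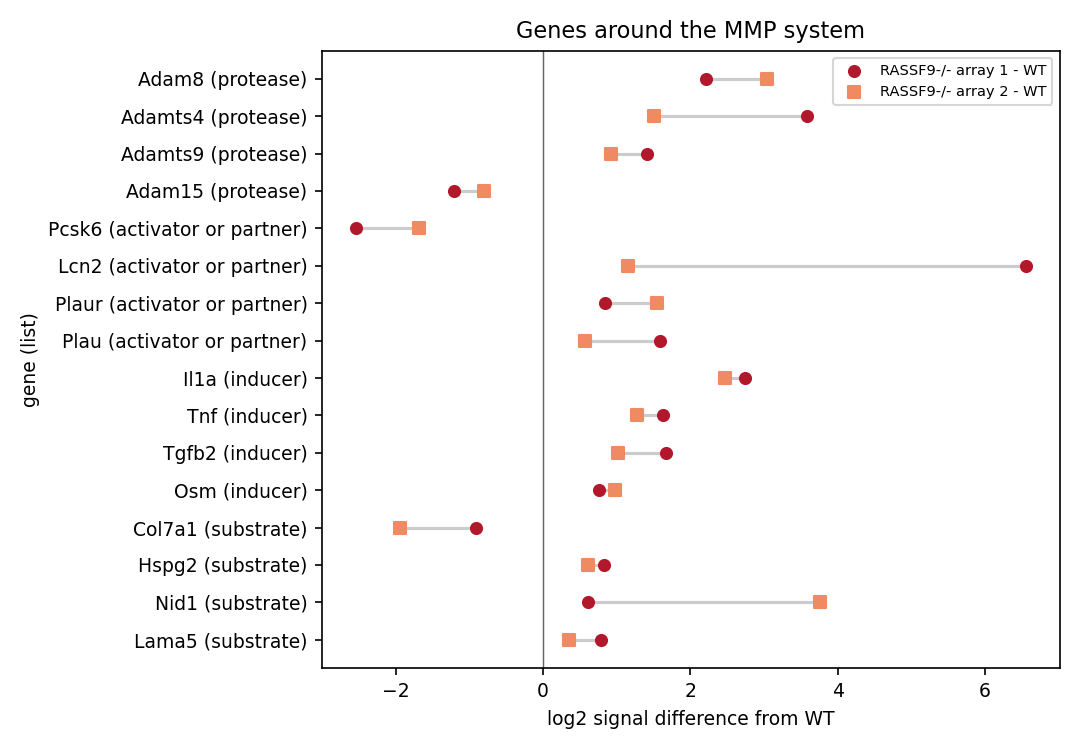
Log2 signal difference from WT on *RASSF9*-/- array 1 (circles) and *RASSF9*-/- array 2 (squares) for up to 4 genes of each related list, taken by the larger of the smaller changes in 1 direction. Lcn2 has the widest gap between the arrays, 6.56 against 1.15, and Adam8, Il1a and Tnf are high on both.

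The genes tested with signals over the 3 arrays most like those of Mmp3 and Timp3, the members with the largest change in 1 direction on both arrays, were found by Euclidean distance between centred log2 signals. Nearest to Mmp3 were Ecscr, Prss36, Plk5, Zmynd19 and Mybpc3, with distances of 0.0233 to 0.0454, but Ecscr, Plk5 and Mybpc3 were under the background limit on the WT array. Zmynd19 gave 576.2 and 510.9 on the *RASSF9*-/- arrays and 212.3 on the WT array. Nearest to Timp3 were Hoxc13, Serpinb6c, Id1, Anxa9 and Rnf144b, with distances of 0.133 to 0.202, and Hoxc13 was under the limit on *RASSF9*-/- array 1. Id1, an inhibitor of helix-loop-helix transcription factors, gave 355.4 and 1016 on the *RASSF9*-/- arrays and 2283 on the WT array. With 3 arrays many genes lie close to any pattern, and the distances, which for these 4 genes rest on signals not above background, are descriptive.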

How the data were processed

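The authors hybridised biotin-labelled cRNA from 3 keratinocyte samples and deposited the MAS5 intensity of every probe set on a linear scale. A trimmed mean of 500, leaving out 2% at either end, was found on each array. No genome build was stated. The study's GeneSpring step was not repeated. Of 45037 probe sets that are not controls, 34945 have 1 gene symbol in the array annotation, 932 several and 9160 none.

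Signals were taken to log2 without further normalization or pseudocount. Probe sets with a mean log2 signal at or above the 50th percentile (a signal of 82.7) were kept, with the brightest for each of 11089 genes, all 9 members included. The difference of *RASSF9*-/- from WT was tested two-sided in limma 3.58.1 under R 4.3.3 (lmFit, then eBayes with a trend on intensity), and p-values were adjusted over all genes by Benjamini-Hochberg. The fit has 1 residual and 5.31 prior degrees of freedom. The script was tested on simulated data. Differences of at least 2-fold on both arrays were counted without a test. Bounds replace values under the background limit by that limit.

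All members, the other family genes and up to 4 genes of each related list, by the smaller change on both arrays, are named. The members, lists and background limit were chosen with earlier results of these data known. Markers outside this rule (Krt1, Krt10, Vim, Lum, Twist2, Csf1r, Cd68, Fcer1g, Mpo, Elane and those at background) were named after their values were seen. So were Il1b and the AP-1 subunits. Alternatives were normalization, filter, pseudocount, probe set choice, trend, test, fold and left-out arrays.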

Additional observations from a re-analysis of the deposited data

How the results depend on the processing

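No member was called under any alternative tried. Of all genes, 9 were called as reported, against 0 with quantile normalization (600 at an unadjusted p under 0.05), 5 with a filter at the 75th percentile (394), 5 with log2(signal + 32) (610), 0 with signals raised to the bacterial limit (492), 0 without the intensity trend (608) and 4 with the methods' t-test (493). Genes at least 2-fold higher on both arrays numbered 320, against 785 at 1.5-fold, 112 at 3-fold, 1277 without the filter, 126 with the 75th percentile and 489 counted by probe set, and the genes lower numbered 248, against 686, 87, 896, 112 and 408 in the same order. Among members, 1 was higher (2 at 1.5-fold, 0 at 3-fold and 0 with the 75th percentile, which leaves out Mmp3) and 1 lower (0 at 3-fold). With 1 *RASSF9*-/- array left out no test is possible: 646 to 762 genes and 2 to 4 members were higher, and 575 to 988 genes and 1 to 3 members lower. Without *RASSF9*-/- replicate 1 the log2 difference turned to -1.06 for Mmp10, -1.48 for Mmp13 and -0.13 for Mmp14. Without replicate 2 it was 1.65, 1.62 and 0.24. Among the settings that give 1 value per gene, these genes reversed under nothing else tried, and the others kept their direction. With every probe set fitted by itself, the log2 estimates of Mmp14 1416572_at (-0.08) and Timp2 1450040_at (-0.03) were opposite in sign to those of the brightest probe sets. No paired analysis was possible because there is 1 WT array. The lowest adjusted p over the alternatives was 0.416 for Timp3 and 0.612 for Mmp3.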

Other observations

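The pattern of Mmp10 and Mmp13 was met by 23 of the 11089 genes tested, at least 2-fold higher on *RASSF9*-/- array 1 and at least 2-fold lower on *RASSF9*-/- array 2 than on the WT array. On 13 of the 23 the *RASSF9*-/- array 2 signal was under the background limit. With such signals raised to the limit, 16 genes remained, both MMPs among them. The 23 were read after their values were seen, and their differences have no test. Periostin (Postn), a matrix protein, gave 3687 on *RASSF9*-/- array 1 and 471.3 on *RASSF9*-/- array 2, against 1438 on the WT array. Wfdc18, a protein with a WAP domain of the kind found in protease inhibitors, gave 2742 and 145.3 on the *RASSF9*-/- arrays, against 604.7 on the WT array. The reverse pattern, lower on array 1 and higher on array 2, was met by 21 genes, or 18 with signals raised to the limit, and no member.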
